A study of Mus musculus with 8 samples.

Results

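This account concerns 10 transcription factors that T cells use when they choose between effector and memory fates: Prdm1, Zeb2, Bhlhe40, Id2, Irf4, Batf, Irf8, Bach2, Id3 and Hopx. Their probe sets were taken by annotation alone: a probe set was included when the array's annotation gave it exactly 1 of these symbols. This gave 21 of the 45037 probe sets in the deposited table, and 18 of the 21 passed a filter on dim signal and were tested. Memory CD4 T cells had been sorted from mouse spleen at day 60 after infection with LCMV Armstrong, a virus strain cleared as an acute infection, as T follicular helper (Tfh) cells or as T helper 1 (Th1) cells. The cells were labelled Rictor-null or wild-type (WT). Rictor is a scaffold protein without which mTOR complex 2, an upstream kinase of AKT, does not form. The 4 groups were Rictor-null Tfh, WT Tfh, Rictor-null Th1 and WT Th1, all from infected mice at the same day, with 2 arrays each. At least 10 mice were pooled for each array, so the spread between arrays is that between pools. The sources used here do not give the deleted part of Rictor, the driver of any Cre, the sort gates or the age of the mice.

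The products of these genes work in opposed pairs. Blimp-1, encoded by Prdm1, represses Bcl6 and drives effector differentiation, whereas Bach2 holds effector genes, Prdm1 among them, in check and favours memory and regulatory cells. Id2 and Id3 both bind E proteins and keep them off DNA; Id2 is linked to effector cells and Th1 cells, Id3 to memory and follicular helper cells. Zeb2 is a repressor that acts with T-bet in terminally differentiated cytotoxic cells. Batf and Irf4 are induced by T cell receptor signals and bind DNA together at composite AP-1 sites, Bhlhe40 is a repressor that supports cytokine production, Irf8 partners with other factors of its family, and Hopx is a homeodomain protein without DNA binding of its own.

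Bach2 is known to compete with AP-1 and Batf proteins for AP-1 sites, so the sequences just upstream of the members' annotated starts were searched for such sites. RefSeq promoter windows on GRCm38.p6 were matched for 9 of the 10 genes, which gave 14 windows of 250 bases. The letters searched, on both strands, were TGANTCA for AP-1 and Batf, CACGTG for the E-box of Bhlhe40, CACCTG for that of Zeb2, and the letters GAAA repeated after any 2 bases for interferon regulatory factors. These motifs did not overlap in the member windows. TGANTCA was held by 6.75% of 32851 windows and by 2 of the 14 member windows, 1 of Zeb2 and 1 of Prdm1. CACGTG stood in 6.02% of all windows and 1 member window (Hopx), CACCTG in 17.2% and 2 member windows (Prdm1 and Irf8), and the interferon regulatory factor letters in 2.98% and 0 member windows. The windows below are shown because Zeb2 and Prdm1 held the AP-1 letters and Bach2 encodes a factor that binds them. All run 5′ to 3′ on the gene's strand up to the base before the start, with matches in capitals. The Zeb2 window is chr2:45110278-45110527 (minus strand), with TGAGTCA beginning 189 bases and TGACTCA 132 bases before the start. The Prdm1 window is chr10:44458749-44458998 (minus strand), with CAGGTG 87 bases and TGAATCA 48 bases before the start. The Bach2 window is chr4:32417185-32417434 (plus strand) and held none of the letters searched. All 3 starts lie inside the annotated span of the gene.
Zeb2: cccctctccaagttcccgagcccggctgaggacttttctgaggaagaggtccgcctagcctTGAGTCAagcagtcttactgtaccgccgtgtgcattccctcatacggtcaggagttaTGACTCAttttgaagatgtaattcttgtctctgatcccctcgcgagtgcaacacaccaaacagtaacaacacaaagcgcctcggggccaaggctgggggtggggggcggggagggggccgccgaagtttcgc
Prdm1: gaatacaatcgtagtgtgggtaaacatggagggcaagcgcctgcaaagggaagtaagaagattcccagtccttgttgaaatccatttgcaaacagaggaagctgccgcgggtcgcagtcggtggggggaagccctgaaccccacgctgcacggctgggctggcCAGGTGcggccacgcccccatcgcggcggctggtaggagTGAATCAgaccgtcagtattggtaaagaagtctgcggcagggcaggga
Bach2: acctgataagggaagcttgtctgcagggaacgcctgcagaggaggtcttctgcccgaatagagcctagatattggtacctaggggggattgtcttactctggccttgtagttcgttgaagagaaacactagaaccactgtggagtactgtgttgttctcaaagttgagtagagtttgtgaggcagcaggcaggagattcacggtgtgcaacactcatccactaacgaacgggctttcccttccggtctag
A match describes letters and not a bound site, and no match says only that these letters are not in this window.

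Before the members, the arrays were compared with their labels. Array medians ran from 35.7 to 37.7, and precision is limited by having 2 arrays a group. On the third principal component Rictor-null Tfh replicate 2 (18.1) stood apart from the other arrays, as did WT Th1 replicate 1 (11.8). Each leading count is also given without both of them. All 5 Rictor probe sets were tested, and their genotype differences ran from -0.11 to 0.30 log2; 1 was called higher in Rictor-null Tfh cells and the other 4 were not called. Where they lie relative to the deletion is not given, so they do not check the label. None of the 6 CD4 T cell markers was called between genotypes (limma, adjusted p; at an unadjusted p under 0.05, 2 in Tfh and 1 in Th1 cells). Of 6 Tfh markers, 4 were higher in WT Tfh than in WT Th1 cells. Of 5 Th1 markers on the array, 0 were lower in WT Tfh than in WT Th1 cells and 1, Ccl5, was higher (1 at an unadjusted p under 0.05); Tbx21, which encodes the Th1-defining factor T-bet, lay between 422 and 465 on all 8 arrays. The Th1 label is therefore not set apart by T-bet message here. The 3 NK cell markers on the array were below the filter, with summed signals between 45.0 and 58.2. Of 6 B cell markers only Cd79b passed it. It was higher in Rictor-null cells by 0.28 (Tfh) and 0.38 (Th1), not called (unadjusted p under 0.05 in both, limma). B cell sums in Tfh cells were 157 to 184 (Rictor-null) and 149 to 158 (WT). In Th1 cells they were 169 to 187 and 154 to 168. Sums of 4 plasma cell markers, mostly Xbp1, were 1432 to 1539 and 1333 to 1372 in Tfh cells. The Th1 sums were 1442 to 1533 and 1249 to 1372. These 4 markers had median differences of -0.08 and -0.04, with 0 called. The part of such cells was not tested.

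Across genotypes, Zeb2, Bhlhe40 and Irf4 were higher and Bach2 was lower in Rictor-null cells of both lineages. In Tfh cells, 7 of the 18 tested member probe sets were higher in Rictor-null cells and 2 were lower, where 8.46% and 1.61% of all 23725 tested probe sets were. In Th1 cells it was again 7 higher and 2 lower, against 6.39% and 2.36% of all. In each lineage 2 of the higher ones, both of Zeb2, passed the filter only through Rictor-null arrays, so they had to differ. With these 2 set aside, 5 were higher and 2 lower of 16 in each lineage. Without both arrays that stood apart, 8 were called in Tfh and 10 in Th1 cells, the same 2 Zeb2 probe sets among them. Counted by the brightest probe set of each gene, 5 of 10 genes were higher and 1 lower in Tfh cells (9% and 1.46% of 11217 genes), and 4 were higher and 1 lower in Th1 cells (6.69% and 2.3%). A call here is an adjusted p under 0.05 (limma, corrected by Benjamini-Hochberg across every tested probe set). Values are differences of log2(signal + 32), Rictor-null minus WT, with standard errors (SE) and n = 2 arrays per group, and they understate folds of dim probe sets. Where a fold is named, it is the ratio of the mean signals. In sorted bulk cells, fewer cells of a type and less RNA per cell cannot be told apart. The choice of scaling moves the split of all calls: 84% of those in Tfh cells were higher as deposited and 64.5% after quantile normalization, and 73% and 59.9% in Th1 cells.

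**Figure D1:**
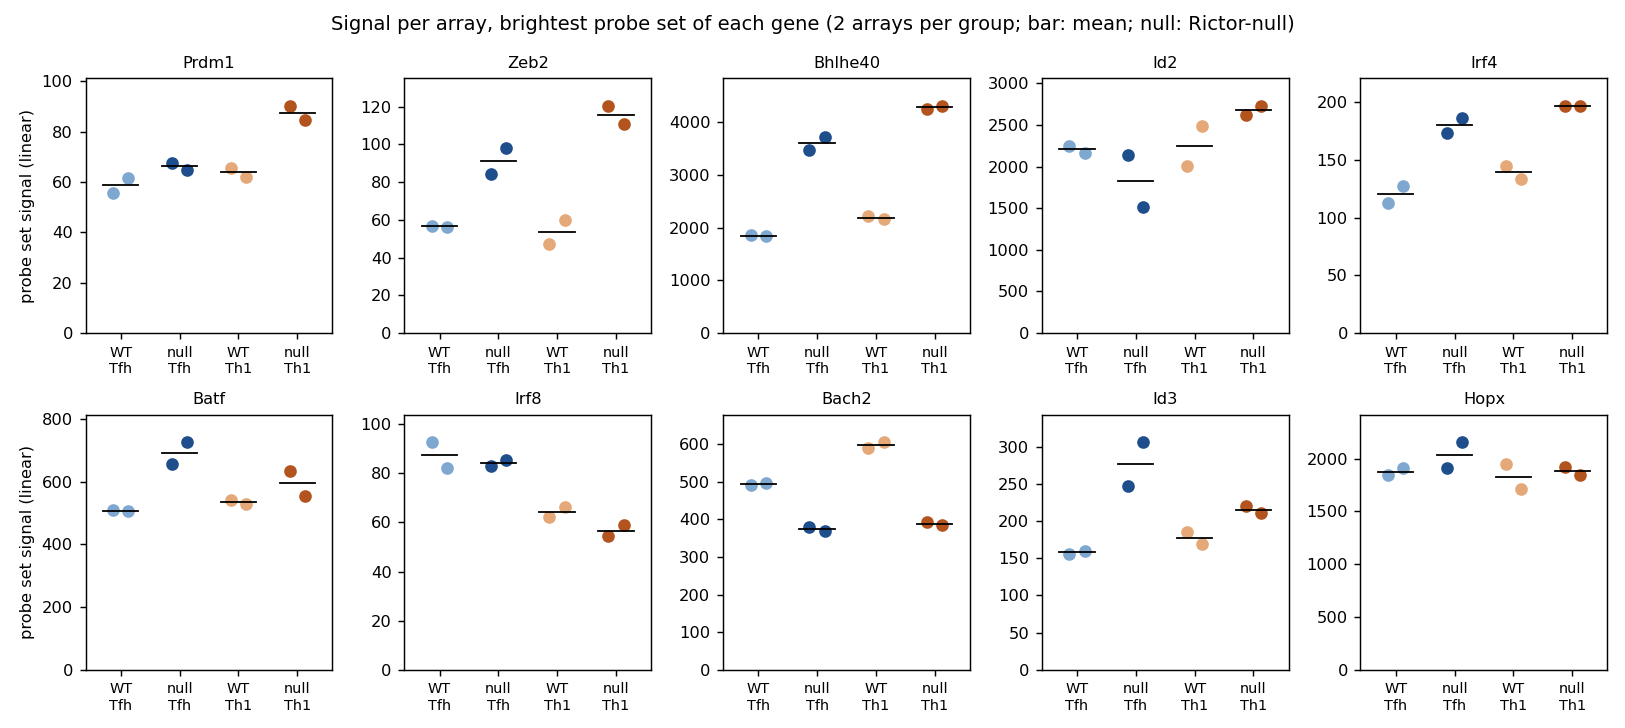
Probe set signal (linear scale) on each of the 8 arrays for the brightest probe set of each of the 10 genes; points are arrays, bars are means of 2 arrays, and "null" stands for Rictor-null. For Prdm1, Zeb2, Bhlhe40, Irf4, Batf and Id3 both Rictor-null arrays lie above both WT arrays in each lineage, and for Bach2 both lie below. This separation includes differences that were not called, such as that of Prdm1 in Tfh cells. With 2 arrays against 2, full separation has an exact two-sided permutation p of 0.333. Its share over all probe sets was not counted, so it is a description only.

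Zeb2 (chromosome 2, 44983512 to 45117442, GRCm38), the zinc finger repressor of terminal effector cells, rose in both lineages. Its brightest probe set, 1458941_at, read 56.5 and 56.4 in WT Tfh cells and 84.1 and 98.1 in Rictor-null Tfh cells. Among Th1 cells, signals were 47.0 and 59.9 in WT and 120 and 111 in Rictor-null cells. Both Rictor-null arrays were above both WT arrays in each lineage, and the highest pair was that of Rictor-null Th1. The difference was 0.47 ± 0.085 (SE) in Tfh cells, adjusted p = 0.00892 (limma), or 1.61-fold. It was 0.79 ± 0.085 in Th1 cells, adjusted p = 0.000521 (limma), or 2.16-fold. Leaving out Rictor-null Tfh replicate 2 (adjusted p = 0.0524, limma), WT Tfh replicate 1 (0.081) or WT Tfh replicate 2 (0.0778) ended the Tfh call of this probe set. The Th1 call held with each array left out.

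Zeb2 is measured by 4 other probe sets, and all of them were higher on every Rictor-null array than on any WT array of the same lineage. Probe set 1422748_at read 30.3 and 32.1 in WT Tfh and 162 and 150 in Rictor-null Tfh cells. For Th1 cells the values were 20.9 and 29.4 in WT and 147 and 108 in Rictor-null cells. The WT signals lie below the array medians, so no ratio is given for this probe set or the dimmer ones. Probe set 1454200_at read 16.6 and 18.5 against 52.7 and 52.8 in Tfh cells, and 13.7 and 13.1 against 64.1 and 45.1 in Th1 cells. Both sets passed the filter only through the Rictor-null arrays, so they had to differ, and their adjusted p (from 6.4e-05 to 0.00107, limma) is given as a description only. Without them, the member counts are 5 higher and 2 lower of 16 in each lineage. The dimmest pair, 1434298_at and 1456389_at, lay below the filter with WT signals between 4.16 and 9.69 and Rictor-null signals between 12 and 36.7. The direction was the same for all 5 Zeb2 probe sets, which were read on the same arrays and are not independent. Their separation by array is a description only.

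**Figure D2:**
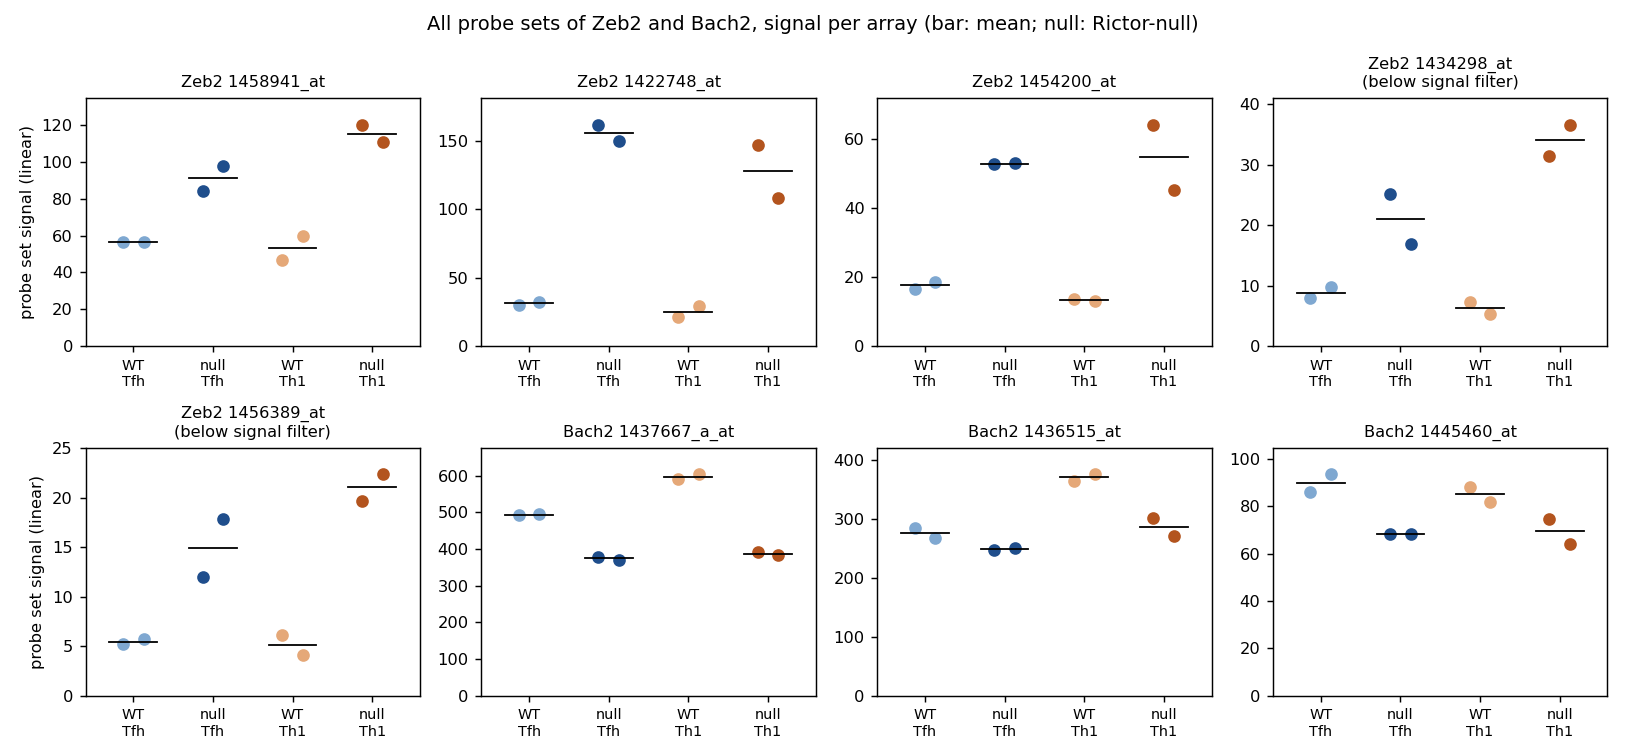
Probe set signal (linear scale) on each array for all 5 probe sets of Zeb2 and all 3 of Bach2; points are arrays, bars are means of 2 arrays, and "null" stands for Rictor-null. Every Zeb2 panel shows the Rictor-null arrays above the WT arrays of the same lineage, and every Bach2 panel shows them below; 2 Zeb2 panels hold probe sets under the signal filter.

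Bhlhe40 (chromosome 6, 108660629 to 108666925), a repressor that T cells need for full cytokine output, rose by nearly the same amount in both lineages. Its single probe set read 1849 and 1836 in WT Tfh and 3478 and 3706 in Rictor-null Tfh cells. In Th1 cells it read 2220 and 2156 in WT and 4252 and 4308 in Rictor-null cells. The groups did not overlap, and the order from lowest to highest was WT Tfh, WT Th1, Rictor-null Tfh, Rictor-null Th1. The difference was 0.95 ± 0.057 in Tfh cells (adjusted p = 3.71e-05, limma) and 0.96 ± 0.057 in Th1 cells (adjusted p = 2.16e-05, limma). These are ratios of 1.95 and 1.96. The difference between both effects was -0.01, with a 95% interval from -0.19 to 0.17.

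Prdm1 (chromosome 10, 44437174 to 44528558), which encodes Blimp-1, was higher in Rictor-null Th1 cells, and its test in Tfh cells was not passed. The probe set read 65.5 and 62.1 in WT Th1 and 90.3 and 84.5 in Rictor-null Th1 cells, a ratio of 1.37. In Tfh cells it read 55.5 and 61.7 in WT and 67.4 and 64.9 in Rictor-null cells. Both Rictor-null Th1 arrays stood above every other array, while the other groups lay between 55.5 and 67.4. The difference was 0.32 ± 0.061 in Th1 cells (adjusted p = 0.0124, limma). In Tfh cells it was 0.12, with a 95% interval from -0.02 to 0.25 (adjusted p = 0.245, limma). The Th1 call ended without Rictor-null Th1 replicate 1 (adjusted p = 0.0939, limma) or WT Th1 replicate 2 (0.0718). The effects in both lineages differed by -0.20 (adjusted p = 0.255, limma), which did not pass.

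Id2 (chromosome 12, 25093799 to 25096092), the E protein inhibitor of effector and Th1 cells, gave no single picture over its 3 probe sets. The dimmest, 1453596_at, read 102 and 97.7 in WT Th1 and 170 and 139 in Rictor-null Th1 cells, and rose by 0.50 ± 0.085 (adjusted p = 0.00714, limma; 1.55-fold). That call ended without Rictor-null Th1 replicate 1 (adjusted p = 0.0536, limma). The same probe set read 90.0 and 78.8 in WT Tfh and 93.3 and 99.9 in Rictor-null Tfh cells, a difference of 0.15 that did not pass. Probe set 1422537_a_at differed by -0.01 in Tfh and 0.05 in Th1 cells (adjusted p = 0.965 and 0.71, limma). Its 95% interval in Tfh cells ran from -0.17 to 0.16. The brightest, 1435176_a_at, read 2249 and 2166 in WT Tfh and 2145 and 1511 in Rictor-null Tfh cells. The Th1 arrays read 2005 and 2493 in WT and 2622 and 2733 in Rictor-null cells. The lowest array of each of the groups with distant replicates, Rictor-null Tfh replicate 2 with 1511 and WT Th1 replicate 1 with 2005, is one of those that stood apart. This probe set was called in neither lineage (-0.29, adjusted p = 0.231, and 0.26, adjusted p = 0.324, limma). In Tfh cells the Id2 difference was -0.04 without Rictor-null Tfh replicate 2 (adjusted p = 0.886, limma) and -0.54 without Rictor-null Tfh replicate 1 (adjusted p = 0.0161, limma). The latter call sets the array at 1511 alone against WT, with its spread assumed to be that of the other groups.

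Irf4 (chromosome 13, 30749233 to 30766981), a factor induced in proportion to T cell receptor signal, was higher in Rictor-null cells of both lineages. Probe set 1421173_at read 113 and 128 in WT Tfh and 173 and 187 in Rictor-null Tfh cells. Among Th1 cells, signals were 145 and 134 in WT and 197 on both arrays in Rictor-null cells. No WT array reached a Rictor-null array of either lineage. The difference was 0.48 ± 0.069 in Tfh cells (adjusted p = 0.00293, limma; 1.5-fold) and 0.42 ± 0.069 in Th1 cells (adjusted p = 0.0056, limma; 1.42-fold). Both calls held with each array left out in turn. A further Irf4 probe set lay below the filter, between 13.5 and 18.3 on all arrays.

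Batf (chromosome 12, 85686720 to 85709087), the AP-1 family partner of Irf4, was higher in Rictor-null Tfh cells. Its probe set read 510 and 505 in WT Tfh and 658 and 726 in Rictor-null Tfh cells, a rise of 0.42 ± 0.075 (adjusted p = 0.00857, limma; 1.36-fold). In Th1 cells it read 543 and 528 in WT and 635 and 554 in Rictor-null cells, with a difference of 0.14 and a 95% interval from -0.03 to 0.31 (adjusted p = 0.291, limma). The groups did not overlap in either lineage, but the lower Rictor-null Th1 array lay close to WT. The Batf call in Tfh cells moved to adjusted p = 0.05 when Rictor-null Tfh replicate 2 was left out, and to 0.078 and 0.0804 when WT Tfh replicate 1 or 2 was (limma). The difference between the effects, 0.28, did not pass (adjusted p = 0.212, limma).

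Bach2 (chromosome 4, 32238413 to 32586109), the repressor of effector genes, was the single gene of the 10 with called falls. The brightest probe set, 1437667_a_at, read 492 and 497 in WT Tfh and 379 and 370 in Rictor-null Tfh cells. Th1 cells gave 590 and 604 in WT and 392 and 384 in Rictor-null cells. WT Th1 was the highest group, WT Tfh came next, and the Rictor-null groups lay together between 370 and 392. It fell by 0.37 ± 0.054 in Tfh cells (adjusted p = 0.00297, limma; 1.32-fold) and by 0.58 ± 0.054 in Th1 cells (adjusted p = 0.000208, limma; 1.54-fold). Both of these calls held with each array left out.

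The other Bach2 probe sets had the same direction with less certainty. Probe set 1436515_at read 284 and 267 in WT Tfh and 247 and 250 in Rictor-null Tfh cells, a difference of -0.13 with a 95% interval from -0.27 to 0.02. The Th1 arrays read 365 and 375 in WT and 301 and 271 in Rictor-null cells, and fell by 0.34 (adjusted p = 0.0115, limma). That Bach2 call ended without Rictor-null Th1 replicate 2 (adjusted p = 0.0721, limma) or WT Th1 replicate 2 (0.0653). Probe set 1445460_at read 86.1 and 93.6 in WT Tfh and 68.3 and 68.5 in Rictor-null Tfh cells, and fell by 0.28 ± 0.068 (adjusted p = 0.0337, limma). This call ended without any 1 of the 4 Tfh arrays, with adjusted p from 0.0501 to 0.23 (limma). In Th1 cells it read 88.2 and 82.0 in WT and 74.8 and 64.2 in Rictor-null cells (-0.21, adjusted p = 0.0979, limma). In all 6 comparisons of WT with Rictor-null cells, both Rictor-null arrays were below both WT arrays. The probe sets were read on the same arrays, so these comparisons are not independent, and the separation is a description only.

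Id3 (chromosome 4, 136143822 to 136145392), the E protein inhibitor of memory and follicular cells, was higher in Rictor-null Tfh cells. Its probe set read 156 and 160 in WT Tfh and 247 and 306 in Rictor-null Tfh cells, a rise of 0.69 ± 0.088 (adjusted p = 0.00162, limma; 1.75-fold). For Th1 cells the values were 186 and 169 in WT and 220 and 210 in Rictor-null cells. The groups did not overlap there either, but the difference of 0.24 (95% interval from 0.04 to 0.44) did not pass (adjusted p = 0.134, limma). It passed in Th1 cells without Rictor-null Tfh replicate 1 or without Rictor-null Tfh replicate 2 (adjusted p = 0.0334 each, limma), arrays that enter only through the shared estimate of spread, and without both arrays that stood apart (0.0294). The Id3 call in Tfh cells held with each array left out.

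Irf8 and Hopx were not called between genotypes by any of their probe sets. Irf8 (chromosome 8, 120736358 to 120756694), a factor of myeloid and B lineages that T cells also use, differed by -0.04 and -0.15 in Tfh cells and by -0.12 and -0.10 in Th1 cells. The adjusted p ran from 0.185 to 0.75 (limma). Hopx (chromosome 5, 77086986 to 77115123), which supports survival of Th1 memory cells, differed by 0.11 and 0.07 in Tfh cells and by 0.04 and 0.19 in Th1 cells. Its brightest probe set lay between 1708 and 2153 on all 8 arrays, and the 95% interval of each Hopx difference included 0.

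**Figure D3:**
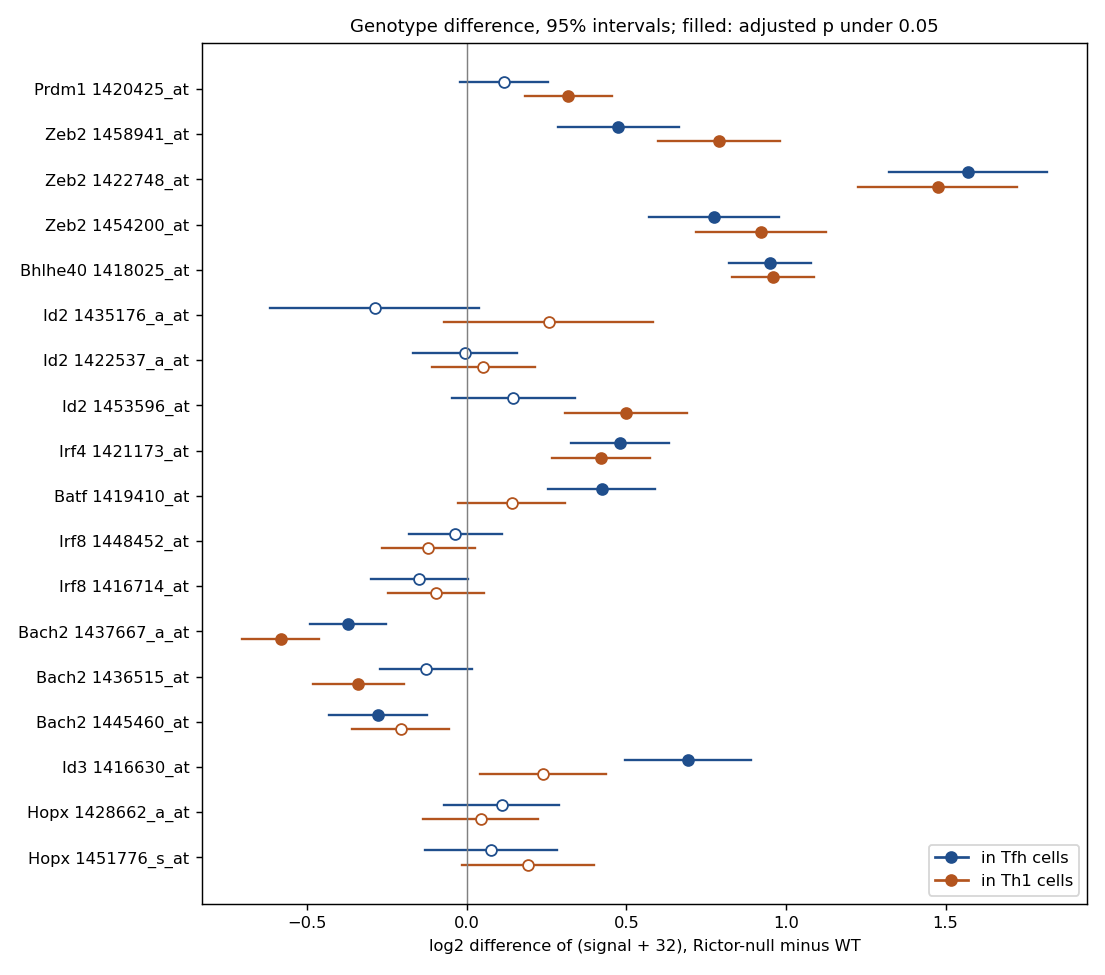
Difference of log2(signal + 32), Rictor-null minus WT, for the 18 tested member probe sets in Tfh and Th1 cells; points are estimates, lines 95% intervals from limma, and filled points have an adjusted p under 0.05. Zeb2, Bhlhe40 and Irf4 lie to the right and Bach2 to the left in both lineages, while every Irf8 and Hopx interval includes 0. Zeb2 probe sets 1422748_at and 1454200_at passed the filter only through Rictor-null arrays, so their points are a description only.

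Differences between the lineages within a genotype were mostly smaller, and most of their calls ended when a single array was left out. These comparisons use the same arrays as those between genotypes and are not independent of them. Compared as Tfh minus Th1, 2 member probe sets were higher and 4 lower in WT cells, against 2.31% and 7.09% of all tested probe sets. In Rictor-null cells 2 were higher and 5 lower, against 4.22% and 6.06%. The share of higher calls over all probe sets was 24.6% in WT cells as deposited and 45.6% after quantile normalization, and 41.1% and 51.1% in Rictor-null cells. Member calls in WT cells numbered 0 without WT Tfh replicate 1, WT Tfh replicate 2 or WT Th1 replicate 2, and 2 without WT Th1 replicate 1. With all arrays 7 of 18 had an unadjusted p under 0.05 there, beside 29.7% of all tested probe sets. In Rictor-null cells the calls numbered 4 without Rictor-null Tfh replicate 2 or either WT Tfh array, 2 without Rictor-null Th1 replicate 1 and 3 without Rictor-null Th1 replicate 2. Without both arrays that stood apart they numbered 4 in WT and 6 in Rictor-null cells.

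Irf8 was higher in Tfh cells by both probe sets and in both genotypes. The brightest read 62.2 and 66.5 in WT Th1 and 92.6 and 82.1 in WT Tfh cells, a difference of 0.31 (adjusted p = 0.0229, limma). In Rictor-null cells it read 54.3 and 58.9 in Th1 and 82.9 and 85.7 in Tfh cells, a difference of 0.39 (adjusted p = 0.006, limma). No Th1 array reached a Tfh array. The other Irf8 probe set differed by 0.33 and 0.28 (adjusted p = 0.0203 and 0.0299, limma). In WT cells the call of the brightest Irf8 probe set ended without any 1 of the 4 WT arrays (adjusted p from 0.0638 to 0.2, limma), and in Rictor-null cells without Rictor-null Th1 replicate 1 (0.0539). The other Irf8 set lost its WT call without WT Tfh replicate 1 (0.177), WT Tfh replicate 2 (0.103) or WT Th1 replicate 2 (0.0944). Its Rictor-null call ended without Rictor-null Tfh replicate 2 (0.12), either Rictor-null Th1 array (0.146 and 0.0932) or either WT Tfh array (0.0606). Irf8 is also a gene of dendritic and myeloid cells, and the summed signal of 8 of their markers was 291 to 308 in WT Tfh and 266 to 287 in WT Th1 cells. In Rictor-null cells the sum was 288 to 296 in Tfh and 241 to 253 in Th1 cells. Of the 8 markers 5 passed the filter and were tested. In Rictor-null cells 2 of these 5 were called higher in Tfh cells, beside 4.22% of all tested probe sets, and 0 were called in WT cells. At an unadjusted p under 0.05 (limma) there were 4 in Rictor-null and 1 in WT cells, beside 25.5% and 29.7% of all. The part of such cells in the Irf8 difference was not tested.

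On the Th1 side, Id2 probe set 1422537_a_at read 1740 and 1719 in WT Tfh and 2316 and 2273 in WT Th1 cells, a difference of -0.40 (adjusted p = 0.0126, limma). In Rictor-null cells it read 1617 and 1833 in Tfh and 2479 and 2282 in Th1 cells (-0.46, adjusted p = 0.00481, limma). All 3 Id2 probe sets were called lower in Rictor-null Tfh than in Rictor-null Th1 cells, and 1 of 3 in WT cells. Bhlhe40 was lower in Tfh cells by 0.24 in WT (adjusted p = 0.0328, limma) and by 0.25 in Rictor-null cells (adjusted p = 0.0243, limma). Prdm1 was lower in Rictor-null Tfh than in Rictor-null Th1 cells by 0.28 (adjusted p = 0.02, limma), and in WT cells the difference of -0.08 did not pass. Bach2 was lower in WT Tfh than in WT Th1 cells, by 0.26 for the brightest probe set and 0.39 for 1436515_at (adjusted p = 0.0224 and 0.00902, limma). In Rictor-null cells the same Bach2 probe sets differed by -0.05 and -0.18, neither called. Leaving out any 1 WT array ended the WT calls of Id2 1422537_a_at (adjusted p from 0.0542 to 0.112, limma), Bhlhe40 (0.0862 to 0.194) and the brightest Bach2 set (0.0887 to 0.176). The WT call of Bach2 1436515_at ended without either WT Tfh array (0.0674 and 0.099) or WT Th1 replicate 2 (0.0531). In Rictor-null cells the Bhlhe40 call ended without Rictor-null Tfh replicate 1 (0.0653), either Rictor-null Th1 array (0.0995 and 0.0998) or either WT Tfh array (0.0587). That of Prdm1 ended without Rictor-null Tfh replicate 2 (0.0728) or either of the Rictor-null Th1 arrays (0.124 and 0.0517). The brightest Id2 set, at -0.56, was not called without Rictor-null Tfh replicate 2 (0.142), either Rictor-null Th1 array (0.147 and 0.159) or either WT Tfh array (0.0745). The calls of Id2 1422537_a_at and 1453596_at in Rictor-null cells held with each array left out. Zeb2, Irf4, Batf, Id3 and Hopx were not called between lineages in either genotype.

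**Figure D4:**
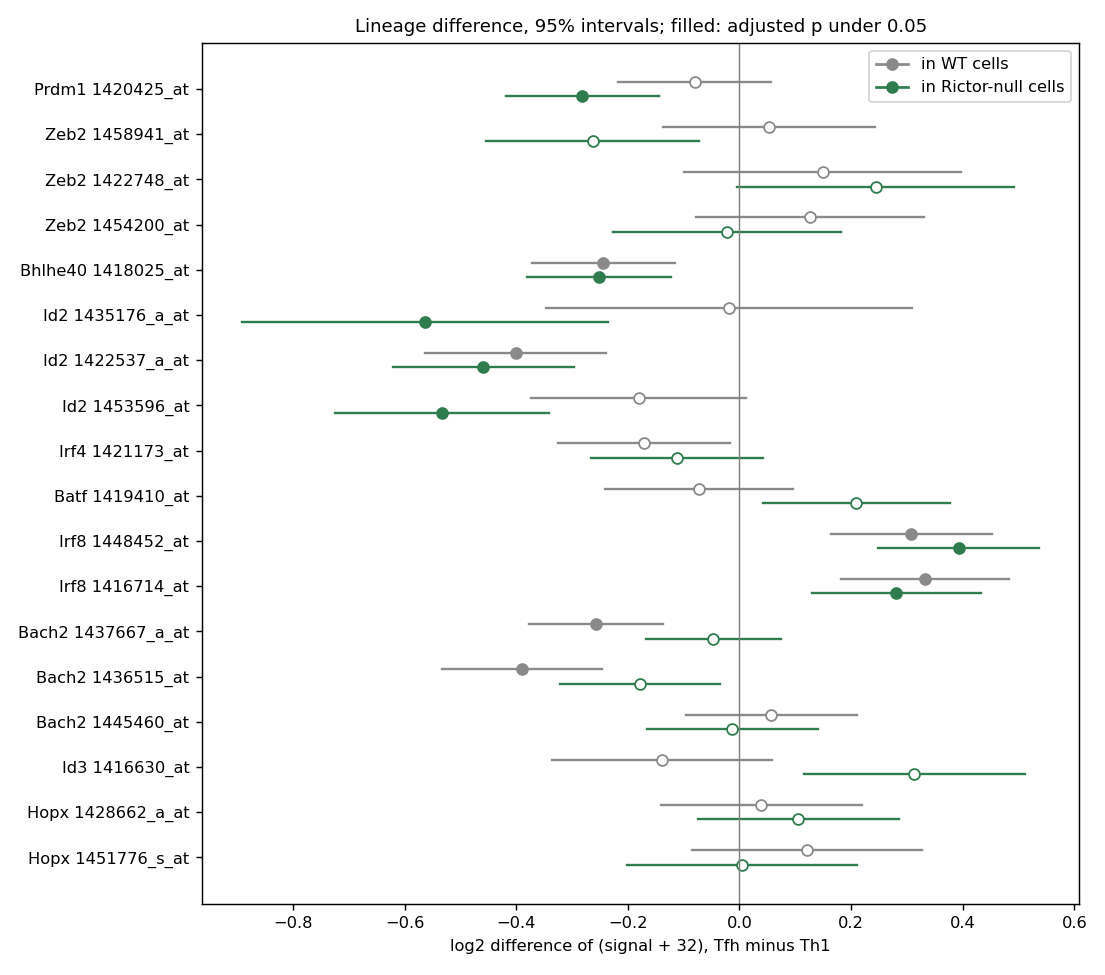
Difference of log2(signal + 32), Tfh minus Th1, for the 18 tested member probe sets in WT and Rictor-null cells; points are estimates, lines 95% intervals from limma, and filled points have an adjusted p under 0.05. Both Irf8 probe sets lie to the right in both genotypes, and Bhlhe40 and Id2 probe set 1422537_a_at to the left.

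Whether the genotype effect differed between Tfh and Th1 cells was tested as an interaction, and 0 of the 18 member probe sets were called (limma, adjusted p), where 1.26% of all tested probe sets were. At an unadjusted p under 0.05 there were 8 of 18, where 18.5% of all tested probe sets were. The smallest p was that of Id3, with an effect 0.45 larger in Tfh cells and a 95% interval from 0.17 to 0.73 (adjusted p = 0.124, limma). The calls of Id3 and Batf in Tfh cells alone, and of Prdm1 and of Id2 1453596_at in Th1 cells alone, are thus not shown to differ between the lineages. Without Rictor-null Tfh replicate 1, Id3 (0.59, adjusted p = 0.0136, limma) and the brightest Id2 probe set (-0.79, adjusted p = 0.0184, limma) were called. Those calls rest on a Rictor-null Tfh group of 1 array, replicate 2, which stood apart, with its spread assumed to be that of the other groups. Without replicate 2 instead, Id3 was at 0.31 (adjusted p = 0.228, limma) and Id2 at -0.30 (0.459). Without both arrays that stood apart they were at 0.26 (0.293) and -0.14 (0.609).

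Partner proteins and relatives of the members were counted next. Of 20 tested genes among 21 partners (E proteins, AP-1 and Maf factors, Ets partners and corepressors), 3 were higher and 0 lower in Rictor-null Tfh cells and 2 were higher and 1 lower in Rictor-null Th1 cells. Over all genes, 9% were higher and 1.46% lower in Tfh cells, and 6.69% and 2.3% in Th1 cells. At an unadjusted p under 0.05 (limma), 6 partners were higher and 0 lower in Tfh cells, and 5 and 3 in Th1 cells. Such a p was held, in either direction, by 27.9% of all tested probe sets in Tfh and 23.9% in Th1 cells. The median difference of the partners was 0.09 and 0.05, beside 0.04 and 0.00 over all genes. Fosl2, an AP-1 subunit of the Fos family, rose by 1.26 in Tfh and 0.95 in Th1 cells (adjusted p = 3.71e-05 and 0.00011, limma), and Junb rose by 0.37 and 0.26 (adjusted p = 0.00716 and 0.0348, limma). Jun fell by 0.30 in Th1 cells, and Maff rose by 0.29 in Tfh cells. Without either WT Tfh array, 1 partner gene was called in Tfh cells; in Th1 cells the count ran from 1 to 5 over the arrays left out, at 5 without either Rictor-null Tfh array and at 1 without any of the other arrays but Rictor-null Th1 replicate 2. Of 16 tested relatives of the members among 21, Id1 alone was called in Tfh cells, higher by 0.33, and Irf5 alone in Th1 cells, lower by 0.36. Their medians were 0.02 and -0.02. The count in Tfh cells was 4 without Rictor-null Tfh replicate 1 and 0 without any of the other Tfh arrays; in Th1 cells it was 2 without either Rictor-null Tfh array and 0 without Rictor-null Th1 replicate 1. Without both arrays that stood apart, 4 partners were higher in Tfh cells, 2 were higher and 1 lower in Th1 cells, and 0 and 2 relatives were called, the latter lower.

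Genes that Bach2 is known to repress were mostly higher in Rictor-null cells. Of 11 tested of 12, 6 were higher in Tfh cells and 9 in Th1 cells, with 0 lower in either (also 0 at an unadjusted p under 0.05, limma). Over all genes 9% and 6.69% were higher. The median differences were 0.42 and 0.53, beside 0.04 and 0.00 over all genes, and the counts were the same without both arrays that stood apart. Ccr9, a homing receptor, rose by 0.95 and 1.57, Csf1, a myeloid growth factor, by 0.88 and 0.65, and Nfil3, a basic leucine zipper repressor, by 0.66 and 0.68. The receptor gene Klrg1, a mark of terminal effector cells that is on the effector list too, rose by 1.15 and 1.77. Ahr, the aryl hydrocarbon receptor, rose by 0.91 in Th1 cells and read 0.17 in Tfh cells without passing. Rora and Il12rb1 were not called in either. The effects on Ahr (-0.75), Ccr9 (-0.61) and Klrg1 (-0.62) were smaller in Tfh than in Th1 cells by the interaction (adjusted p = 0.0144, 0.0144 and 0.0308, limma). Between lineages (Tfh minus Th1), 1 of the 11 was higher and 4 lower in WT cells (2.31% and 7.09% of all tested probe sets). In Rictor-null cells 0 were higher and 5 lower (4.22% and 6.06%). Bach2 itself was lower in WT Tfh than in WT Th1 cells (-0.26 by its brightest probe set). Between WT lineages most called genes of the list thus had the same direction as Bach2. The list includes Prdm1 itself.

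Of genes that Blimp-1 is known to repress, 7 of 10 were tested: 3 were higher in Tfh cells (Bcl6, Cxcr5 and Id3) and 1 in Th1 cells (Ccr7), beside 9% and 6.69% of all genes, with 0 lower in either lineage. At an unadjusted p under 0.05 (limma), 6 of 7 were higher in Tfh and 3 of 7 in Th1 cells, with 0 lower. Of all tested probe sets, 27.9% and 23.9% had such a p in either direction. The medians of the list were 0.17 and 0.06, beside 0.04 and 0.00 over all genes. Id3 is also a member, so its part in these counts repeats the member result. Without WT Tfh replicate 1 the Tfh count was 1. The Th1 count was 0 without either Rictor-null Th1 array or WT Th1 replicate 1, and 2 without either Rictor-null Tfh array. Without both arrays that stood apart it was 3 and 1. All 6 Tfh markers, Bcl6 and Cxcr5 among them, were higher in Rictor-null than in WT Tfh cells, and 4 of 6 were in Th1 cells; their summed signal was 4042 to 4068 against 2892 to 2973 in Tfh cells and 3291 to 3463 against 2505 to 2584 in Th1 cells. The part of this shift in the members' differences was not tested.

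Of 18 effector genes, 9 were higher and 0 lower in Rictor-null cells of each lineage (limma; at an unadjusted p under 0.05, 0 were lower in Tfh and 1 in Th1 cells). Over all genes the shares were 9% higher and 1.46% lower in Tfh cells and 6.69% and 2.3% in Th1 cells. The median difference was 0.22 in both, beside 0.04 and 0.00 over all genes. By the interaction 4 of the 18 were called, all with a lower value in Tfh than in Th1 cells, beside 1.26% of all tested probe sets. Compared as Tfh minus Th1, 10 were higher and 0 lower in WT cells (2.31% and 7.09% of all tested probe sets). In Rictor-null cells 5 were higher and 3 lower (4.22% and 6.06%). Gzma and Gzmb encode granzymes; Gzmb rose by 0.73 in Tfh and 1.28 in Th1 cells, and Gzma had the largest rise of the list in both, 2.28 and 3.03. Cx3cr1, the fractalkine receptor of circulating effector cells, rose by 1.15 and 1.67, and S1pr5, a receptor for exit into blood, by 1.09 and 1.59. S1pr5 and Klrg1 are genes that Zeb2 is linked to in cytotoxic cells. Tbx21, Ifng, Tnf and Cxcr3 were among the effector genes not called. Without either WT Tfh array the Tfh count was 5; without both arrays that stood apart the counts were 7 and 8. Several of these genes also mark NK and CD8 T cells: the summed NK markers were 52.5 to 58.2 in Rictor-null Tfh, 51.1 to 51.7 in WT Tfh, 53.2 to 57.5 in Rictor-null Th1 and 45.0 to 55.8 in WT Th1 cells. The sum of Cd8a and Cd8b1 was 103 to 106 in Rictor-null Tfh and 92.5 to 92.6 in WT Tfh cells, with Cd8b1 called higher, and 91.9 to 101 in Rictor-null Th1 and 97.1 to 106 in WT Th1 cells.

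Memory and naive-like genes split both ways. Of 14 tested of 16, 4 were higher and 2 lower in Rictor-null Tfh cells, and 3 were higher and 4 lower in Rictor-null Th1 cells. Over all genes the shares were 9% and 1.46%, and 6.69% and 2.3%. The medians were 0.04 and -0.06, beside 0.04 and 0.00 over all genes. Bcl2, the survival protein, rose by 0.68 and 0.50, and Slamf6 by 0.34 and 0.46. Satb1, a chromatin organiser of resting T cells, fell by 0.32 and 0.83, and the interaction was called (0.50, adjusted p = 0.0397, limma). Myb fell by 0.23 and 0.24, while Foxo1 and Lef1 fell in Th1 cells by 0.27 and 0.33. Without WT Tfh replicate 1 or WT Tfh replicate 2, 1 and 2 of these genes were called in Tfh cells. In Th1 cells 3 were called without Rictor-null Th1 replicate 1, and 4 without any 1 of the other Th1 arrays. Without both arrays that stood apart, 4 were higher and 0 lower in Tfh cells, and 2 were higher and 3 lower in Th1 cells. Tcf7 was not analysed here. Eomes, the T-box factor of memory and cytotoxic cells, was higher in Rictor-null than in WT Tfh cells by both probe sets. The brightest rose by 0.33 (adjusted p = 0.0278, limma) and the other by 0.51 (adjusted p = 0.000664, limma). In Th1 cells neither was called (0.20 and -0.13). By its brightest probe set Eomes was 3.18 higher in WT Tfh than in WT Th1 cells, and 3.31 higher in Tfh among Rictor-null cells. The other Eomes probe set gave 2.84 and 3.48. Its interaction was called (0.64, adjusted p = 0.0102, limma), while that of the brightest was not (0.13, adjusted p = 0.536, limma).

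**Figure D5:**
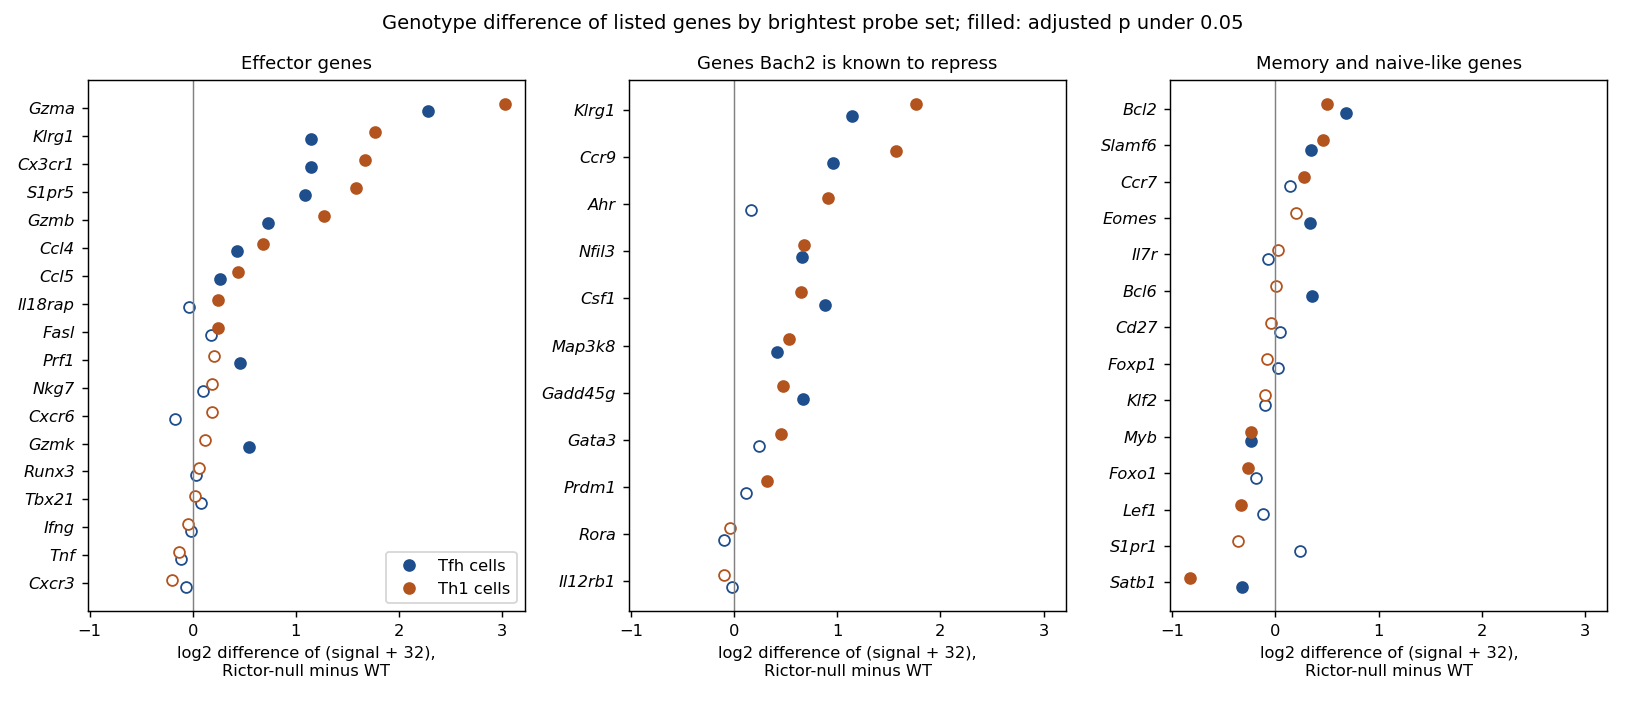
Difference of log2(signal + 32), Rictor-null minus WT, by the brightest probe set of each tested gene of the effector list (18 genes), the list of genes Bach2 is known to repress (11) and the memory and naive-like list (14); filled points have an adjusted p under 0.05. The effector and Bach2 lists hold filled points on the right side only, and the memory list has them on both sides.

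Regulatory T cells also use Bach2, Irf4, Batf and Prdm1, so their markers were set beside the members. Ikzf2, which encodes Helios, read 1051 and 1048 in WT Tfh and 1850 and 1893 in Rictor-null Tfh cells, and 771 and 812 in WT Th1 and 1170 and 1300 in Rictor-null Th1 cells. It was called higher in both lineages. Foxp3, the factor that defines these cells, lay below the filter, with 18.7 and 22.9 against 27.5 and 41.5 in WT and Rictor-null Tfh cells, and 16.9 and 23.7 against 35.0 and 27.5 in Th1 cells. Il2ra was not called in either lineage. The summed signal of these 3 markers was higher on every Rictor-null array than on any WT array of its lineage. Most of that sum is Ikzf2, so it largely repeats the Ikzf2 values. The part of these markers in the members' differences was not tested.

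To place the members among other genes, the genes with the closest pattern over the 8 arrays were found for each brightest probe set. Likeness is the root mean square difference between log2 values centred on their own means, a description without a test, and small values come easily to genes that vary little. For Bhlhe40 the closest were Igf1r (0.062), the insulin-like growth factor receptor gene, Dst (0.0652) and Nr4a3 (0.0681), a nuclear receptor induced by T cell receptor signals. For Bach2 they were Rasal1 (0.0626), Rundc3b (0.0644) and Tmem108 (0.0674). Irf4 was followed most closely by Arid5b (0.0453), Inpp5f (0.0501) and Nup98 (0.0518), and Zeb2 by Ptprs (0.074), Gbp3 (0.0758) and Gprasp2 (0.0768). Id3 lay closest to Pfn2 (0.0484), Pim1 (0.0614), a kinase of cytokine signals, and Bcl2l11 (0.073), which encodes the death protein Bim. Prdm1 had Noct (0.0318), Aopep (0.0322) and Aplp1 (0.0345) nearest, and Batf had Zmynd8 (0.0387), Ctsz (0.0439) and Arnt2 (0.0441). For Irf8, Id2 and Hopx the closest genes were Nek7 (0.0439), Lztr1 (0.0533) and Ilf2 (0.0252).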

How the data were processed

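The authors deposited 1 table of probe set signals for 8 Affymetrix arrays, as intensity on a linear scale; the submitters' processing notes name MAS5 and RMA, with no version, role or order, so how the arrays were scaled is not known here. Per the labels' protocols, each array took biotin-labelled cRNA from 100 ng of total RNA. Symbols came from the platform annotation: 34945 probe sets had 1 symbol, 932 had several and 9160 had none. Of those with 1 symbol, 34741 were matched by gene ID to the RefSeq table of GRCm38.p6, which changed 0 symbols.

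From the deposited intensity values log2(signal + 32) was computed here, and a probe set was kept when 2 or more of the 8 arrays read above their own median (23725 probe sets; 18 of the 21 member probe sets). In R 4.3.3, limma 3.58.1 fitted a mean for each group to the 8 arrays together, with contrasts and empirical Bayes moderation (4 residual and 5.4 prior degrees of freedom). Benjamini-Hochberg correction ran over all kept probe sets. P-values measure the spread between these arrays of pooled mice; an exact permutation of 2 against 2 arrays cannot give a two-sided p under 0.333. The fit was tested on simulated data.

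Members and gene lists were chosen with earlier results of these data known. Named were all member probe sets, up to 4 called genes of a list per comparison (smallest p first, others as examples chosen after their values were seen), Tcf7, Eomes, Tbx21 and Bcl6, and the 3 genes most like each member. Alternatives covered scaling, filter, pseudocount, probe set choice, array weights, variance trend, replicate block and arrays left out. Promoter windows came from RefSeq (GRCm38.p6). Figures were drawn with matplotlib 3.10.9 in Python 3.11.15.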

Additional observations from a re-analysis of the deposited data

Results flagged for a closer look

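The brightest Id2 probe set, 1435176_a_at, moved in opposite directions with genotype in the 2 lineages: both Rictor-null Tfh arrays (2145 and 1511) lay below both WT Tfh arrays (2249 and 2166), and both Rictor-null Th1 arrays (2622 and 2733) lay above both WT Th1 arrays (2005 and 2493). The difference between both genotype effects was -0.55 on the log2 scale and did not pass the interaction test (adjusted p = 0.215, limma); without Rictor-null Tfh replicate 1 it did (-0.79, adjusted p = 0.0184, limma), in a fit where Rictor-null Tfh replicate 2, an array that stood apart, was alone in its group and its spread was assumed to be that of the others. Without Rictor-null Tfh replicate 2 it was -0.30 (adjusted p = 0.459, limma), and without both arrays that stood apart -0.14 (adjusted p = 0.609, limma). The other Id2 probe sets gave interactions of -0.35 (adjusted p = 0.184, limma) for 1453596_at and -0.06 for 1422537_a_at.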

How the results depend on the processing

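Over all tested probe sets, calls between genotypes in Tfh cells numbered 2387 and fell to 1528 with the brightest probe set per gene (fewer tests) and 1521 without the 2 arrays that stood apart; leaving out single arrays gave 533 to 4420. In Th1 cells 2075 became 1180 with the brightest probe sets, and 816 to 2862 with an array left out. For lineage in WT cells 2230 became 4898 with array weights, 1217 with the replicate block and 3391 with the compared arrays alone (207 to 3698). In Rictor-null cells 2440 became 1090 with the brightest probe sets, 1495 with array weights and 1122 with the compared arrays alone (898 to 3292). Interaction calls, 298 at first, were 77 without a filter, 155 with a pseudocount of 1, 136 with the brightest probe sets and 178 with the replicate block (14 to 2245). Member calls were 5 in place of 9 in Th1 cells and 3 in place of 6 for lineage in WT cells with the brightest probe sets, and 4 (array weights) and 3 (compared arrays alone) in place of 7 for lineage in Rictor-null cells. With single arrays left out they ran from 6 to 9 (Tfh), 7 to 10 (Th1), 0 to 6 (lineage, WT), 2 to 7 (lineage, Rictor-null) and 0 to 2 (interaction). For the lists, whose alternatives were chosen after seeing the data, partner calls in Th1 cells went from 3 to 1 with the replicate block, and relatives in Tfh cells from 1 to 0 with the block and to 0 without the 2 arrays, and in Th1 cells from 1 to 2 without them. Ranges with an array left out, Tfh then Th1, were 1 to 4 and 1 to 5 for partners, 0 to 4 and 0 to 2 for relatives, 1 to 6 and 3 to 7 for memory genes, 5 to 9 and 7 to 9 for effector genes, 1 to 3 and 0 to 2 for Blimp-1 targets, and 6 to 6 and 8 to 9 for Bach2 targets. Deviations of same-numbered arrays correlated from -0.53 (Rictor-null Tfh with WT Th1) to 0.31 (Rictor-null Tfh with WT Tfh). The negative value means that arrays of unlike number deviated alike. With 2 arrays a group, whose deviations mirror each other, these values cannot decide whether the numbers pair the samples. Bhlhe40, Irf4 and the brightest Bach2 probe set in both lineages, Id3 in Tfh and the brightest Zeb2 probe set in Th1 cells kept their genotype calls under every alternative run. Calls of single lineage differences that ended include Bhlhe40 in Rictor-null cells after quantile normalization (adjusted p = 0.0575, limma) and in WT cells with a pseudocount of 1 (0.0598). Among the brightest probe sets of each gene, signs turned for values that were called in neither setting, given here with their range over arrays left out: Hopx in Th1 cells -0.0171 after quantile normalization (range -0.0512 to 0.137), Irf8 in Tfh cells (range -0.100 to 0.0274), and for lineage in WT cells Zeb2 -0.0561 without the 2 arrays (range -0.0561 to 0.162), Id2 (range -0.173 to 0.137) and Hopx (range -0.0549 to 0.133). For the interaction they were Bhlhe40 0.0464 after quantile normalization (range -0.0528 to 0.0382), Irf4 -0.0321 without the 2 arrays (range -0.0133 to 0.131) and Hopx -0.113 without the 2 arrays (range -0.0280 to 0.160). Among the other member probe sets, signs also turned in 11 cases under some alternative, 0 of them called in any: Id2 1422537_a_at for genotype in Tfh and Th1 cells, Bach2 1445460_at, Hopx 1451776_s_at and Zeb2 1454200_at for lineage in Rictor-null cells, and these 4 with Irf8 1416714_at and Zeb2 1422748_at for the interaction. The cause was not tested. Signals near background limit the dimmest Zeb2 and Irf4 probe sets.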
